A study of Homo sapiens with 12 samples.

Results

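Palbociclib, an inhibitor of the cell cycle kinases CDK4 and CDK6 (CDK4/6i), was added to all-trans retinoic acid (ATRA) in HL60 cells, and its effect was taken as the 3 CDK4/6i+ATRA libraries against the 3 ATRA libraries, which are 6 of the 12 RNA-Seq libraries of the series. HL60 is a human myeloid leukemia line that lacks the PML-RARA fusion of promyelocytic leukemia. The ATRA group received 1 µM ATRA for 48 h and the CDK4/6i+ATRA group received 1 µM ATRA together with 1 µM palbociclib for 48 h, so both groups share the ATRA treatment. Non-treated cells and cells given 1 µM palbociclib alone for 48 h, with 3 libraries each, were used to ask how far the palbociclib effect depends on ATRA. The labels call the 3 libraries of each group biological replicates of 1 cell line, at 1 dose and 1 time. All expressed genes are described, which are 13318 of the 59251 genes in the count table.

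ATRA binds the retinoic acid receptors and drives HL60 cells along the granulocyte path, on which they gain neutrophil receptors and oxidase subunits and finally stop dividing. CDK4 and CDK6 with a D-type cyclin phosphorylate RB, which frees the E2F factors to transcribe S phase genes, and palbociclib blocks that step. Granulocytes are also a source of cytokines and chemokines, whose genes are classic targets of NF-kB, AP-1 and the ERK pathway.

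The ATRA libraries held 15238994 to 17010052 counts and the CDK4/6i+ATRA libraries 12230923 to 14415276. Pairs of libraries within these groups differed by more than counting noise (chi-square of the counts over genes, 1.99 to 6.22 when divided by its degrees of freedom), so each library was kept as a replicate. The 10 most abundant genes took 6.34% to 6.71% of the counts with ATRA and 9.98% to 11.1% with CDK4/6i+ATRA. Genes of the mitochondrial genome took 2.78% to 3.91% and 4.62% to 6.08%, and the part of either shift in the results was not tested. Myeloid identity genes were present in both groups. SPI1, which encodes the myeloid master regulator PU.1, was at 477, 456 and 457 CPM with ATRA and 838, 859 and 868 CPM with CDK4/6i+ATRA, and CEBPA, a factor of the granulocyte lineage, at 148, 139.7 and 147 CPM and 75.5, 76.9 and 76.6 CPM. The neutrophil elastase gene ELANE had no count in any library, and the table lists it on an alternate contig as well as on its chromosome, so nothing was read from that 0. In all, 60 of the 606 list genes had no count in any library, 11 of them also listed on alternate contigs, and nothing was read from these either.

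Values are CPM, the counts scaled to a common library total, after TMM scaling, and folds are log2 values with their standard error (SE) from edgeR's quasi-likelihood fit over all 12 libraries. A gene was called changed at a Benjamini-Hochberg adjusted p under 0.05 over all 13318 tested genes. Adding palbociclib to ATRA changed 9291 genes, or 69.8% of those tested. Of these 4920 rose (36.9%) and 4371 fell (32.8%). At least 2-fold changes numbered 1445 rises (10.8%) and 1757 falls (13.2%), and at least 8-fold changes 129 rises and 372 falls. The libraries of the 2 groups did not overlap for 9570 genes (71.9%). Over all tested genes the log2 fold change had a median of 0.04 and quartiles of -0.52 and 0.54. These shares are the background against which each gene list is read below, because most genes passed the test. List members were chosen with earlier results of these data known, so the list shares are descriptions. Scaling by library size alone, without TMM, moved the median of all genes to -0.26 and the share of rises among called genes from 53.0% to 31.6%, so small changes in this comparison depend on the scaling.

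The cell cycle genes fell furthest. All 48 tested S phase genes and all 49 tested G2/M phase genes fell, each by at least 2-fold, against 32.8% and 13.2% of all tested genes. The median log2 fold change was -4.20 for S phase and -5.75 for G2/M phase (-5.60 with genes at the counting floor of 3 counts per library set to their bound). MKI67, the proliferation marker Ki-67, was at 1035, 1043 and 1006 CPM with ATRA and 11.5, 8.74 and 9.17 CPM with CDK4/6i+ATRA (log2 fold change -6.71 ± 0.07, adjusted p = 8.7e-53). Ribonucleotide reductase RRM2, which makes deoxynucleotides, was at 613, 620.5 and 625 CPM and 10.4, 8.29 and 11.1 CPM (log2 fold change -5.96 ± 0.06, adjusted p = 1.9e-51). PLK1, a mitotic kinase, was at 217, 218 and 233 CPM and 5.68, 4.19 and 4.3 CPM (log2 fold change -5.56 ± 0.08, adjusted p = 4.9e-47). None of the 3 genes had overlapping libraries. The smallest falls were those of GINS3, a subunit of the replicative helicase (-1.46), and POLD3, a subunit of DNA polymerase delta (-1.48), in S phase, and KIF23 (-2.61) and AURKA (-2.80), which act in cytokinesis and at the spindle poles, in G2/M.

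Several cell cycle transcripts reached the counting limit of the combination libraries. E2F7, an E2F family repressor, had 273 counts over the ATRA libraries and 0 over the CDK4/6i+ATRA libraries, so it was at least 20.1-fold lower when 3 counts per library are set as the floor. PBK, a mitotic kinase, had 518 counts and 1 count, a ratio of 344 with a 95% counting interval of 61.5 to 13630. Other genes overlap 58.2% of its exon bases, which leaves its reads uncertain. POLE2, a subunit of DNA polymerase epsilon, had 699 and 3 counts, a ratio of 155 with an interval of 52.8 to 753. These intervals cover counting error only. The 15 largest falls among genes with a mean of at least 5 CPM in either group, LOC and LINC symbols left out, were E2F7, PBK, E2F8, CDCA3, RAD54B, HJURP, POLE2, NEIL3, EXO1, DSCC1, SPC25, CLSPN, ANLN, MKI67 and NDC80. Apart from E2F7 their fitted log2 fold changes ran from -8.08 to -6.70. PBK, E2F8, RAD54B, POLE2, DSCC1 and SPC25 were also at the floor with CDK4/6i+ATRA, so their fitted sizes and their order are uncertain. As background, the 15 genes act in DNA replication, DNA repair, mitosis, cytokinesis or E2F control. CDCA3 (40.6%) and RAD54B (63.7%) also share exon bases with neighbours, and SPC25 is also listed on an alternate contig.

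ATRA by itself lowered 35 of the 48 S phase genes and raised 5 (median -0.39), and it raised 36 of the 49 G2/M genes and lowered 3 (median 0.31), against 32.1% rises and 35.5% falls of all genes. MKI67 was at 639, 643 and 707 CPM in non-treated cells and rose with ATRA alone (0.63), while palbociclib alone lowered it (-4.99). The fall was larger with ATRA than without it, with a difference of -1.73 (adjusted p = 8.5e-20). The ATRA libraries enter both the ATRA effect and the effect of adding palbociclib, so these values are set side by side only.

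Promoters of the cell cycle lists are shown because these genes moved together. They run from 250 bases before to 50 bases after the start in RefSeq GRCh38.p14, and the genes shown were chosen after their matches were seen. The first listed start of each gene was used, and whether HL60 cells use that start was not tested. Both strands were searched for the cell cycle genes homology region (CHR, TTTGAA), the CCAAT box (CCAAT) and an E2F site (TTTNNCGC), and capitals mark the matches. Positions count from the start, with -1 the base before it.
PLK1 promoter, chr16:23678639-23678938 on the plus strand, CHR at -29 and CCAAT box at -73: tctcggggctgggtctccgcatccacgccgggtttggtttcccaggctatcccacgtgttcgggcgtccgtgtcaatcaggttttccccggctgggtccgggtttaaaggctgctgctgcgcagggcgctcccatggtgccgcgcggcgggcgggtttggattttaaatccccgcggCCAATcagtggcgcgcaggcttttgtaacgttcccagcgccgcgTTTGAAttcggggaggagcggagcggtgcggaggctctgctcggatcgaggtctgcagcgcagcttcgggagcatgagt
CCNB2 promoter, chr15:59104896-59105195 on the plus strand, CHR at -29 and CCAAT boxes at -54, -87, -120 and -244: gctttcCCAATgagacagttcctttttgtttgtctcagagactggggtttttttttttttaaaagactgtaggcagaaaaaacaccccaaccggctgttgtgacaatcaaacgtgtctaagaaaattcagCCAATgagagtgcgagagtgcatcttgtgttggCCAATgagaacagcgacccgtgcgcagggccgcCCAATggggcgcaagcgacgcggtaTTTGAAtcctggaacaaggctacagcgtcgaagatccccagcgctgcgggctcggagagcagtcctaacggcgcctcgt
CDC6 promoter, chr17:40287629-40287928 on the plus strand, E2F site at 8 and CCAAT boxes at -50 and, on the other strand, -103 and -126: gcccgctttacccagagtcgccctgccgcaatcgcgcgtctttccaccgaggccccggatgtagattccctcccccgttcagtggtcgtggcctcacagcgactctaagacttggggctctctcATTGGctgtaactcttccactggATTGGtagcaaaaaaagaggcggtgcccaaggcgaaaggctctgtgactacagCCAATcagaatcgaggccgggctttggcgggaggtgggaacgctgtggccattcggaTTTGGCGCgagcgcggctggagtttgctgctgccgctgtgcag
CCNB2, cyclin B2, was at 151, 164 and 155 CPM with ATRA and 11, 13.1 and 10.5 CPM with CDK4/6i+ATRA (-3.77 on the log2 scale), and CDC6, which licenses replication origins, at 63.4, 69.8 and 65 CPM and 1.19, 1.87 and 1.24 CPM (-5.52). A CHR match stood in 29 of the 41 G2/M promoters found in the table (70.7%), against 10.9% of the promoters of all tested genes and 15.2% of all 35116 promoters. The CCAAT box stood in 33 of the 41 (80.5%), against 34.9% and 34.6%. The E2F letters stood in 23 of the 40 S phase promoters found (57.5%), against 9.88% of promoters of tested genes and 6.89% of all. A CHR match was found in 1 of those 40 S phase promoters (2.50%). Other lists held these letters too. The CHR letters stood in 7 of 12 promoters of Fc, complement and pattern recognition receptors (58.3%) and 5 of 11 of eicosanoid genes (45.5%), lists in which most genes rose, and the CCAAT box in 6 of 7 inflammasome promoters (85.7%) and 5 of 7 of specific and gelatinase granule genes (71.4%). A match is a description of the letters and not a bound site. The list shares count only the first listed promoter of each gene, while the background shares count every listed promoter, so the units differ.

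G1 regulators split. Of 15 tested CDK inhibitors and G1 regulators, 3 rose and 10 fell, with a median of -0.55. The 3 that rose were the CDK inhibitor genes CDKN2B, which encodes p15, and CDKN1A, which encodes p21, and the D-type cyclin gene CCND1. CDKN2B was at 4.01, 3.56 and 3.15 CPM with ATRA and 55.5, 53.3 and 51 CPM with CDK4/6i+ATRA (log2 fold change 3.90 ± 0.12, adjusted p = 1.2e-32). CDKN1A was at 6.9, 7.4 and 6.3 CPM and 23.6, 18.3 and 20.7 CPM (log2 fold change 1.60 ± 0.14, adjusted p = 1.3e-14), and CCND1 at 80.8, 76.9 and 74.9 CPM and 229.5, 229 and 238 CPM (log2 fold change 1.58 ± 0.04, adjusted p = 2.1e-35). The drug's target gene CDK4 was at 44.9, 44.7 and 44.1 CPM and 11.6, 9.54 and 11.4 CPM (log2 fold change -2.03 ± 0.08, adjusted p = 1.4e-28), although other genes overlap 57.8% of its exon bases. CDK6 fell less (-0.40). CDKN2C, which encodes p18 (-3.94, 54.5% of exon bases shared), RBL1, the RB relative p107 (-3.83), and the kinase CDK2 (-3.25) fell most, while RB1 had 261, 267 and 267 CPM and 253, 253 and 253 CPM and did not pass the test (adjusted p = 0.11), although it passed as lower with library size alone (-0.37), with no filter (-0.16, adjusted p = 0.0015) and with only the groups compared (-0.14, adjusted p = 0.0016).

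**Figure D1:**
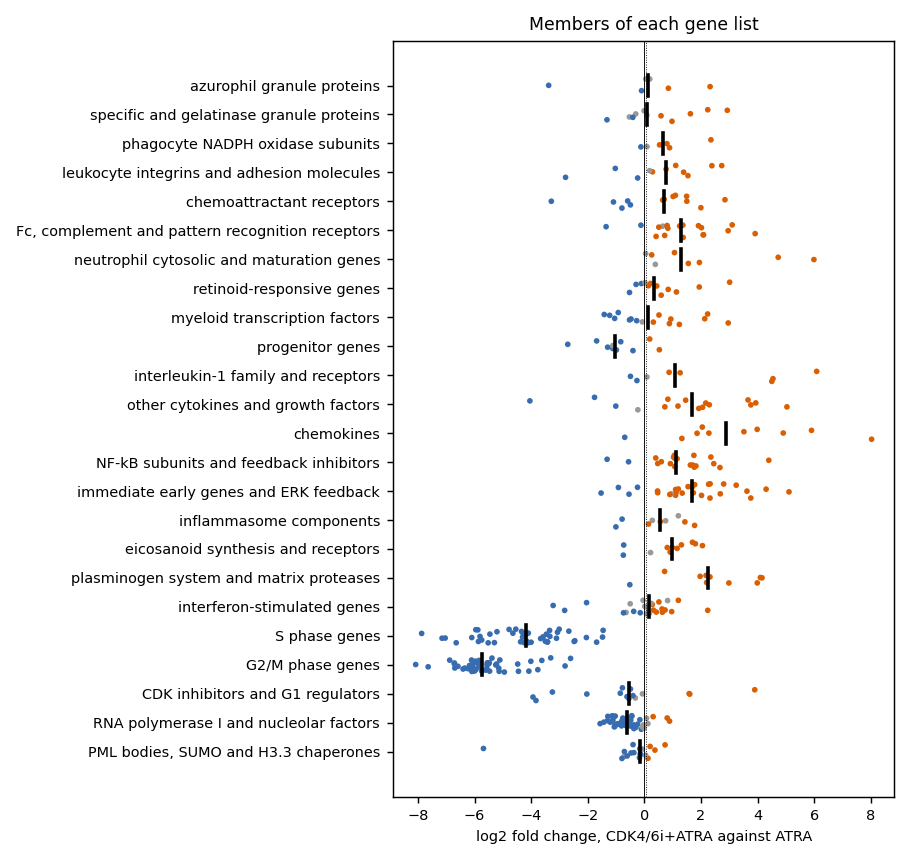
Log2 fold change of CDK4/6i+ATRA against ATRA (x axis) for the tested members of each gene list (rows). Points are genes, orange for called rises, blue for called falls and grey for genes that did not pass the test; black bars are list medians, the solid line is 0 and the dotted line the median of all tested genes. The 97 cell cycle genes lie wholly below 0, and the chemokine and plasminogen lists have the highest medians, at 2.90 and 2.26.

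Most granulocyte effector genes rose when palbociclib was added to ATRA. Over the 7 lists of granule, oxidase, adhesion, chemoattractant, Fc and pattern recognition, and cytosolic neutrophil genes, 47 of 73 tested members rose (64.4%) and 15 fell, against 36.9% and 32.8% of all genes. Their median log2 fold change was 0.80, and 31 rose and 7 fell by at least 2-fold. These members were also chosen with earlier results of these data known, so the shares describe them only. With ATRA alone against non-treated cells, which shares the ATRA libraries, 60 of the 73 rose and 10 fell, against 32.1% and 35.5% of all genes. Of those 60 genes 41 rose again with palbociclib, 12 fell and 7 did not pass the test.

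Among the subunits of the phagocyte NADPH oxidase, which makes superoxide, 4 of 6 rose. The catalytic subunit CYBB was at 2099, 2037 and 2101 CPM with ATRA and 2959, 2978 and 3113 CPM with CDK4/6i+ATRA (log2 fold change 0.54 ± 0.04, adjusted p = 1.2e-16). It was at 130.5, 129 and 135 CPM in non-treated cells, and its partner CYBA (0.89) and the GTPase RAC2 (0.80) also rose with CDK4/6i+ATRA. The organizer subunit NCF1 fell slightly (-0.12, adjusted p = 0.0071), but it has near-identical pseudogenes that can take its reads. NCF4 was at 59.3, 57.3 and 60.4 CPM and 63.8, 62.6 and 62.6 CPM and did not pass the test in this fit (0.09 on the log2 scale), while it passed as lower with library size alone (-0.21, adjusted p = 0.0013). It is also listed on an alternate contig.

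Of 11 tested integrins and adhesion molecules 7 rose and 3 fell, with a median of 0.77. ITGAM, which encodes CD11b, the classic differentiation marker of HL60 cells, was at 276, 274 and 271 CPM with ATRA and 604, 578 and 586 CPM with CDK4/6i+ATRA (log2 fold change 1.11 ± 0.04, adjusted p = 5.1e-31). ITGAX, which encodes CD11c, was at 26.1, 26.2 and 27 CPM and 149, 131 and 136 CPM (log2 fold change 2.39 ± 0.06, adjusted p = 9.9e-36). ICAM1, an adhesion ligand and NF-kB target, was at 173, 156 and 151 CPM and 1063, 1037 and 1088 CPM (log2 fold change 2.73 ± 0.04, adjusted p = 1.5e-45). The groups did not overlap for any of these. ICAM3 (1.39) and the common beta chain ITGB2 (0.77) rose as well, and ITGAL did so by 0.29 with TMM and stood at -0.021 with library size alone. SELPLG, the selectin ligand PSGL-1, went the other way, at 35.3, 35.2 and 43.5 CPM and 4.31, 5.17 and 6.94 CPM (log2 fold change -2.79 ± 0.11, adjusted p = 6.7e-28), and PECAM1 (-1.03) and CEACAM1 (-0.24) fell too.

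Chemoattractant receptors went both ways, with 8 rises and 5 falls among 13 tested. The formyl peptide receptor FPR1 was at 9.43, 8.16 and 9.67 CPM with ATRA and 63.7, 61.3 and 71.2 CPM with CDK4/6i+ATRA (log2 fold change 2.85 ± 0.09, adjusted p = 6.5e-32), and FPR2 (1.10), the complement receptors C5AR1 (2.00), C3AR1 (1.49) and C5AR2 (0.70), the platelet activating factor receptor PTAFR (0.65), CCR1 (1.02) and CCRL2 (1.50) also rose. The receptors that fell were CXCR4, the CXCL12 receptor, at 372, 367 and 369 CPM and 169.6, 175 and 174 CPM (log2 fold change -1.09 ± 0.04, adjusted p = 6.5e-30), the interleukin-8 receptors CXCR2 (-0.59) and CXCR1 (-0.79, a call lost without ATRA replicate 3, adjusted p = 0.061), the leukotriene receptor LTB4R (-0.49, also listed on an alternate contig) and CCR2, which had 92 counts over the ATRA libraries and 6 over the CDK4/6i+ATRA libraries, a ratio of 10.2 with a 95% counting interval of 4.51 to 28.5. ATRA alone had raised all of these receptors over non-treated cells, for example CXCR4 by 1.41 and FPR1 by 3.43.

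Fc, complement and pattern recognition receptors rose in 15 of 18 cases (median 1.30), the highest share of these 7 lists. CLEC4A, an inhibitory lectin receptor, was at 1.42, 1.98 and 1.44 CPM and 23.8, 25.8 and 23.7 CPM (log2 fold change 3.91 ± 0.18, adjusted p = 4.1e-25). The Fc receptor gamma chain FCER1G was at 88.7, 85.8 and 87.5 CPM and 371, 356 and 378 CPM (log2 fold change 2.08 ± 0.04, adjusted p = 1.4e-39). TLR8 (3.10), CLEC7A, which encodes the beta-glucan receptor dectin-1 (2.96), TLR1 (2.09) and the complement receptor CR1 (1.25) rose too. FCGR1A, the high-affinity IgG receptor, fell (-1.35), as did TLR4 by a small margin (-0.12, adjusted p = 0.027, and 0.13 without CDK4/6i+ATRA replicate 1). Among cytosolic and maturation genes 6 of 8 rose. AQP9, a water and glycerol channel of neutrophils, was at 1.48, 1.4 and 1.1 CPM with ATRA and 81.7, 88.2 and 83.8 CPM with the combination (log2 fold change 5.99 ± 0.12, adjusted p = 2.1e-39). Palbociclib alone left AQP9 at 0.0519, 0.122 and 0.0585 CPM, and the difference between its palbociclib effects with and without ATRA did not pass the test. The calprotectin genes S100A8 (1.94) and S100A9 (1.55) and their relative S100A12 (4.73) rose together. The G-CSF receptor CSF3R rose by 0.26 with TMM and stood at -0.050 with library size alone, and MNDA, a myeloid nuclear antigen, was 0.05 (adjusted p = 0.29), and passed as lower with library size alone (-0.26, adjusted p = 3.2e-07).

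Granule genes gave the lowest medians of the 7 lists. Of 11 tested specific and gelatinase granule genes 5 rose and 2 fell, with a median of 0.09 that stood at -0.22 with library size alone. LTF, LCN2 and CAMP, the defining specific granule genes, were under 0.4 CPM in every ATRA and CDK4/6i+ATRA library. MMP8, neutrophil collagenase, was at 1.66, 1.69 and 2.54 CPM and 8.07, 10.2 and 9.83 CPM (log2 fold change 2.24 ± 0.23, adjusted p = 4.5e-12). MMP9, gelatinase B, was at 0.555, 0.0583 and 0.552 CPM and 2.57, 4.01 and 2.48 CPM (log2 fold change 2.93 ± 0.43, adjusted p = 3.8e-08). Both stayed under 11 CPM in every library of the 2 groups. FCN1, ficolin-1, fell (-1.32), as did MMP25 (-0.41, 27.4% of exon bases shared). Of 6 tested azurophil granule genes 2 rose and 2 fell. MPO, which encodes myeloperoxidase, was at 6666, 6550 and 6335 CPM in non-treated cells, at 268, 288 and 322 CPM with ATRA and at 25.5, 24.5 and 33.9 CPM with CDK4/6i+ATRA (log2 fold change -3.38 ± 0.07, adjusted p = 7e-39). It fell less with palbociclib alone (-0.91), and the difference of -2.47 passed the test (adjusted p = 7.1e-28). LYZ, lysozyme, rose (2.32) and BPI, the bactericidal protein, fell slightly, with overlapping libraries at 272, 254 and 268 CPM with ATRA and 234, 252 and 255 CPM with CDK4/6i+ATRA (log2 fold change -0.10 ± 0.04, adjusted p = 0.038), a call lost without ATRA replicate 1 or 3 or CDK4/6i+ATRA replicate 1 (adjusted p up to 0.22).

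**Figure D2:**
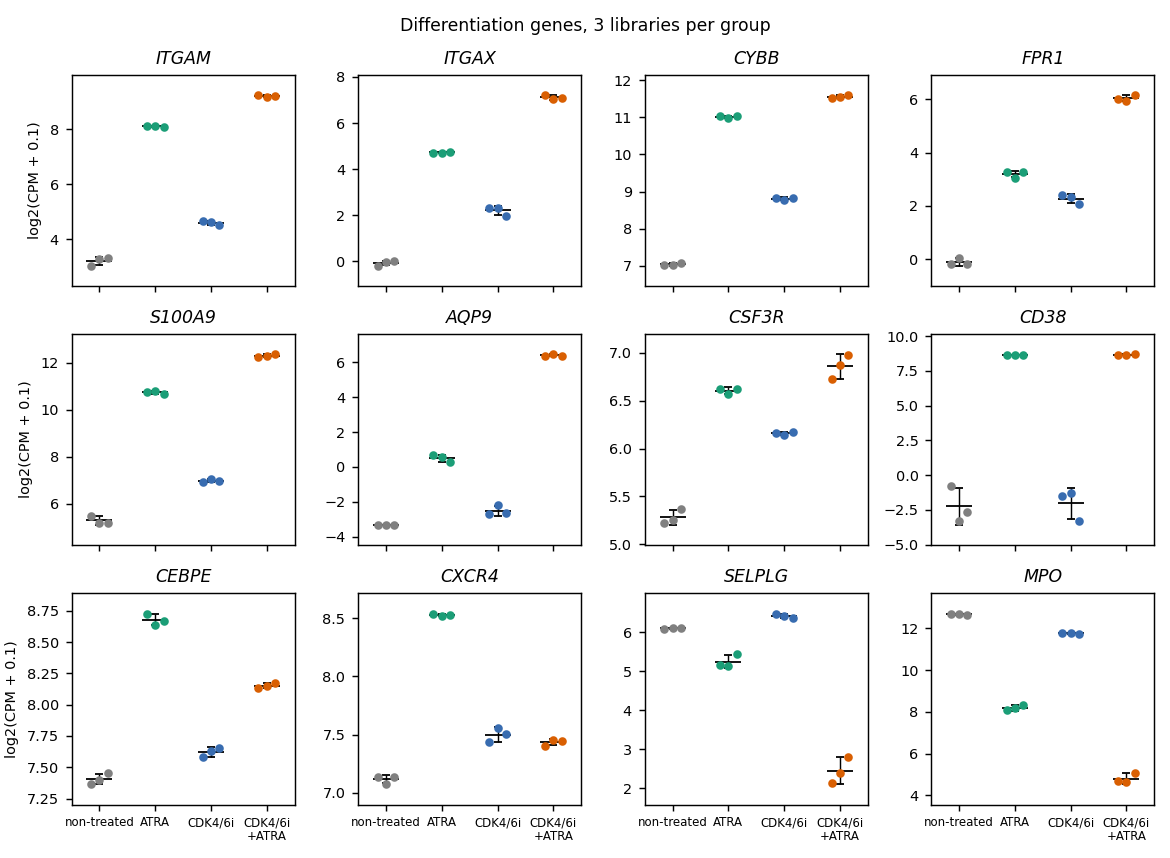
Expression of 12 differentiation genes as log2(CPM + 0.1) (y axis) in the 4 groups (x axis). Points are the 3 libraries of a group, and horizontal and vertical bars are the mean and SD. ITGAM, ITGAX, CYBB, FPR1, S100A9 and AQP9 were highest with CDK4/6i+ATRA, CD38 was level between ATRA and CDK4/6i+ATRA, and CEBPE, CXCR4, SELPLG and MPO fell from ATRA to CDK4/6i+ATRA.

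CD38 and TGM2, both raised by ATRA alone, had log2 fold changes of 0.02 and -0.10 with palbociclib added. Of 12 tested retinoid-responsive genes 8 rose and 3 fell, with a median of 0.33 and with 3 rises of at least 2-fold. CD38, an early ATRA-induced ectoenzyme, was at 0.481, 0 and 0.0563 CPM in non-treated cells, 408, 399 and 392 CPM with ATRA and 409, 395 and 412 CPM with CDK4/6i+ATRA. Its libraries overlapped, and its log2 fold change of 0.02 ± 0.04 did not pass the test (adjusted p = 0.67), while library size alone put it at -0.28, past the threshold (adjusted p = 8.9e-07). The transglutaminase TGM2 was at 2178, 1944 and 1948 CPM and 1846, 1883 and 1922 CPM, a small fall (-0.10, adjusted p = 0.031, a call lost with the replicate number as a block, adjusted p = 0.051, and without CDK4/6i+ATRA replicate 1 or 2 or ATRA replicate 1, up to 0.29), and ASB2, a ubiquitin ligase subunit, which is also listed on an alternate contig, fell too (-0.29, and a call lost without ATRA replicate 1, ATRA replicate 3 or CDK4/6i+ATRA replicate 1, with adjusted p up to 0.16). The retinoid enzyme genes DHRS3 (0.59) and DHRS9 (0.14) and the repressor HIC1 (0.44, 26.5% of exon bases shared) rose. The call of DHRS9 was lost with DESeq2's size factors, with no filter, with only the groups compared, with DESeq2 and without ATRA replicate 2 or 3 or CDK4/6i+ATRA replicate 2 or 3 (adjusted p of 0.053 to 0.60). DHRS9 was a called fall of -0.16 with library size alone (adjusted p = 0.021). The receptors themselves rose, RARA from 109, 101 and 99.8 CPM to 181, 187 and 185 CPM (0.84) and RARG from 4.5, 4.08 and 3.81 CPM to 15.9, 16 and 15.7 CPM (1.94). STRA6, the retinol transporter, rose most (3.01) from a low level, and it is also listed on an alternate contig.

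Myeloid transcription factors went both ways, with 8 rises and 7 falls among 16 tested. CEBPE, which controls specific granule genes, was at 424, 399 and 407 CPM with ATRA and 281, 283 and 289 CPM with CDK4/6i+ATRA (log2 fold change -0.53 ± 0.04, adjusted p = 8.2e-18). GFI1, a repressor needed for the neutrophil fate, was at 259.7, 275 and 275 CPM and 104, 102 and 97 CPM (log2 fold change -1.42 ± 0.04, adjusted p = 2.6e-33). The early factor CEBPA also fell (-0.92), as did GATA2 (-1.05). BCL6, a repressor active in mature myeloid cells, was at 42, 38.4 and 36.9 CPM and 171, 189.5 and 191 CPM (log2 fold change 2.24 ± 0.06, adjusted p = 1.1e-33). SPI1 (0.88), CEBPD (0.93), KLF2 (1.24) and KLF4 (2.13) rose. Of 10 tested progenitor genes 7 fell and 2 rose. FLT3 (-1.69), KIT (-1.30) and WT1 (-1.12) fell. MYB was at 74.6, 72 and 74.5 CPM and 9.9, 11.1 and 12.7 CPM (log2 fold change -2.71 ± 0.07, adjusted p = 5.8e-36), and MYC, which is amplified in HL60 cells, at 141, 155 and 156 CPM and 77.5, 91.8 and 84 CPM (log2 fold change -0.83 ± 0.05, adjusted p = 3.9e-20). Palbociclib without ATRA left MYB at 364, 377 and 370.0 CPM beside 336, 347 and 338 CPM in non-treated cells.

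Genes used to mark other cell types were read beside these lists. Of 20 monocyte and macrophage markers 8 were tested and 6 rose, and their summed level was 34.7 to 38.6 CPM with ATRA and 158 to 164 CPM with CDK4/6i+ATRA. CD86, a costimulatory ligand, rose most by fold, at 7.21, 6.82 and 6.91 CPM and 84.4, 82.4 and 82.3 CPM (3.57), and CD68 (1.03), CD36 (2.33) and CSF1R (1.30) rose too. The defining markers CD163, C1QB and C1QC, which had counts in other libraries, had 0 counts in both groups, and CD14 stayed under 0.3 CPM. HLA-DRA, MSR1, MARCO and TREM2 are among the genes with no count in any library. Eosinophil markers summed to 599.7 to 664 CPM and 413 to 484 CPM, among them PRG2 at 261, 297 and 299.7 CPM and 61.7, 61.1 and 71.3 CPM (-2.14) and CLC, whose libraries overlapped at 324, 307 and 349.9 CPM and 339, 354 and 396 CPM (0.15, a called fall of -0.16 with library size alone, adjusted p = 0.00070, and a call lost with no filter, adjusted p = 0.40, with only the groups compared, 0.13, and without ATRA replicate 2, 0.073, or CDK4/6i+ATRA replicate 3, 0.10). Dendritic cell markers summed to 28.2 to 29.8 CPM and 70.8 to 78.0 CPM, with CD83 up (1.42) and CLEC4C down (-1.60, a call lost with DESeq2, adjusted p = 0.066, and without replicate 2 or 3 of either group, up to 0.11), and 6 of the 7 were under 1 CPM in both groups. Megakaryocyte markers summed to 3.37 to 3.73 CPM and 8.65 to 10.7 CPM, with ITGA2B up (1.51), and B cell markers to 22.8 to 25.3 CPM and 13.1 to 18.2 CPM, with CD79A down (-0.73). T and NK cell markers summed to 5.98 to 6.57 CPM and 6.28 to 6.42 CPM, and mast cell, erythroid, and epithelial and stromal markers to at most 1.17 CPM in any of these libraries. In RNA from whole cultures, fewer cells of a type and less RNA per cell cannot be told apart. The part of these markers in the other results was not tested.

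A broad set of inflammatory genes rose with palbociclib on top of ATRA. Over the 9 inflammation lists 99 of 138 tested genes rose (71.7%) and 23 fell, with a median of 1.14 (1.11 with genes at the counting floor at their bound), and 75 rose by at least 2-fold. The background was 36.9% rises and 10.8% rises of at least 2-fold. Since the members were chosen with earlier results of these data known, the excess over it is a description. Of the 214 genes on these lists 76 were not tested. Of the 34 tested cytokines, chemokines and interleukin-1 genes 26 rose, with a median of 1.98.

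Of 8 tested interleukin-1 family and receptor genes 5 rose and 2 fell, with a median of 1.07. IL1B, which encodes secreted interleukin-1 beta, was at 73.6, 56 and 57.3 CPM with ATRA and 1442, 1413 and 1499 CPM with CDK4/6i+ATRA (log2 fold change 4.54 ± 0.05, adjusted p = 2.7e-49). IL1A was at 12.3, 9.97 and 9.28 CPM and 237, 233 and 242 CPM (log2 fold change 4.50 ± 0.07, adjusted p = 4.5e-44). IL1RN, the interleukin-1 receptor antagonist, was at 1.11, 0.408 and 0.442 CPM and 45.7, 48.4 and 38.7 CPM (log2 fold change 6.09 ± 0.18, adjusted p = 4.5e-33). This was the largest rise among genes with a mean of at least 5 CPM in either group, LOC and LINC symbols left out. No library of one group reached the other for these 3 genes, so the ligands and their inhibitor rose together. The inhibitor had not risen with ATRA alone (-0.19, adjusted p = 0.67), whereas IL1B had (3.85). IL18 (0.87) and its binding protein IL18BP (1.26) rose, and the receptor subunits IL1RAP (-0.26) and IL18RAP (-0.49) fell.

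Chemokines rose in 9 of 10 tested cases, with a median of 2.90 (2.62 with genes at the floor at their bound). Of the 29 genes on the list 19 had too few counts to be tested. At the floor with ATRA were 3 of the 10, which could hardly be called lower, so the share of rises is a description. CXCL8, which encodes interleukin-8, the main neutrophil attractant, was at 581, 531 and 506 CPM with ATRA and 6180, 6041 and 6308 CPM with CDK4/6i+ATRA (log2 fold change 3.52 ± 0.05, adjusted p = 1.4e-46). CCL2, a monocyte attractant, was at 2002, 1828 and 1863 CPM and 9182, 9239 and 9234 CPM (log2 fold change 2.28 ± 0.06, adjusted p = 4.2e-36). CCL20 (1.86), CXCL16 (2.05), CCL23 (1.32, also listed on an alternate contig) and CCL24 (4.91) followed. Some chemokines had few or no counts with ATRA. CCL7 had 0 counts over the ATRA libraries and 71 over the CDK4/6i+ATRA libraries, at least 11.8-fold higher against 3 counts per library, a call that DESeq2 did not make (adjusted p = 0.10). CCL1 had 6 and 254 counts, a ratio of 63.7 with a counting interval of 28.8 to 175, and CXCL3 had 4 and 46, a ratio of 17.3 with a counting interval of 6.32 to 66.2. CCL22, an attractant of regulatory T cells, fell (-0.69, adjusted p = 0.012, and 0.10 without CDK4/6i+ATRA replicate 3).

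Other secreted factors rose in 12 of 16 tested cases. GDF15, a stress cytokine, was at 7.33, 4.84 and 4.42 CPM and 182, 185 and 174 CPM (log2 fold change 5.04 ± 0.09, adjusted p = 7.2e-42), and was at 0 in every non-treated library. LIF was at 11.6, 11.1 and 8.51 CPM and 163, 159.6 and 154 CPM (log2 fold change 3.94 ± 0.08, adjusted p = 1.2e-40), and CSF1, which encodes M-CSF, at 13.3, 12.4 and 12.9 CPM and 177, 169 and 177 CPM (log2 fold change 3.76 ± 0.07, adjusted p = 1.2e-40). Palbociclib without ATRA left LIF at 0, 0.183 and 0 CPM and CSF1 at 0.0519, 0.794 and 0.351 CPM. HBEGF (2.06), TNFSF9 (2.17), TNFSF15 (3.66) and TGFB1 (1.19) rose. TNF itself stayed low, at 0.74, 0.583 and 0.331 CPM and 2.29, 2.67 and 3.14 CPM (2.30), and is also listed on an alternate contig. The 3 that fell were the anti-inflammatory IL10, with 56 and 2 counts over the ATRA and CDK4/6i+ATRA libraries (a ratio of 18.6, counting interval 4.92 to 158), IL32 (-1.01) and the B cell factor TNFSF13B (-1.76).

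**Figure D3:**
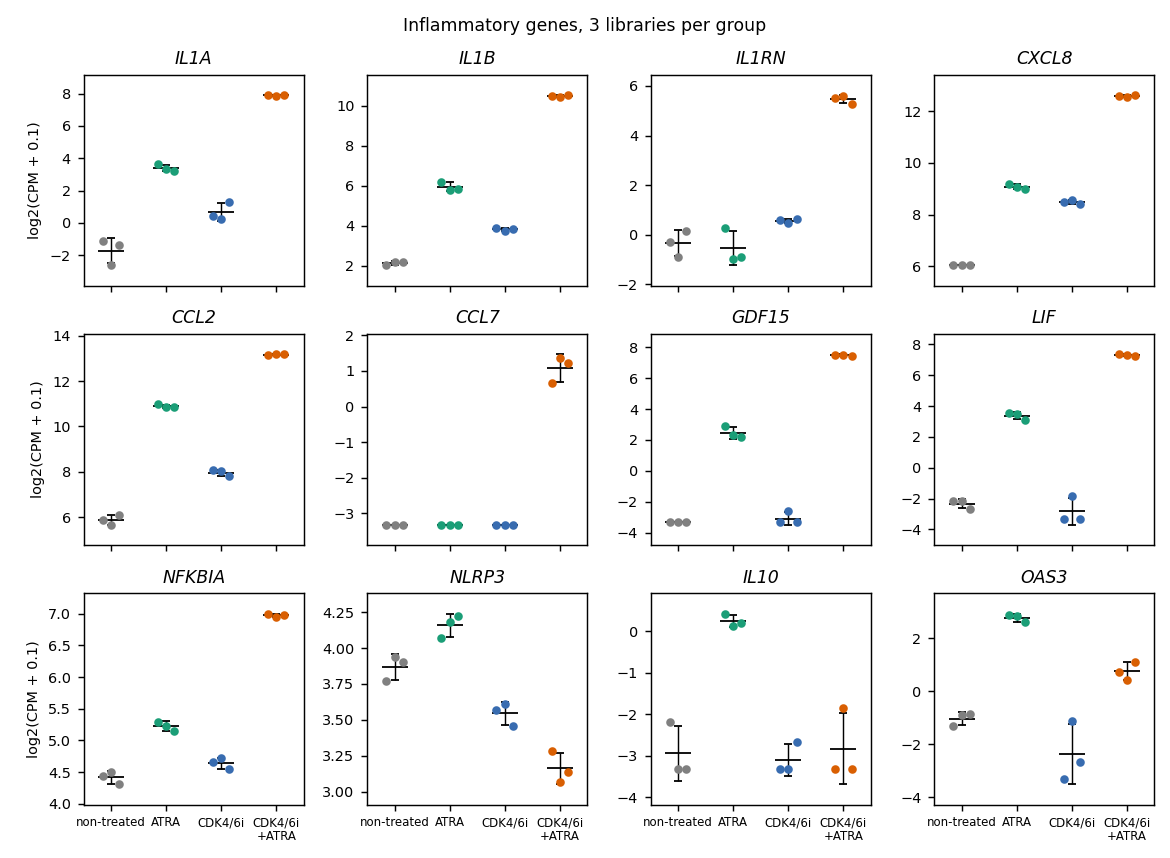
Expression of 12 inflammatory genes as log2(CPM + 0.1) (y axis) in the 4 groups (x axis). Points are the 3 libraries of a group, and horizontal and vertical bars are the mean and SD. In 9 panels the CDK4/6i+ATRA libraries are the highest of the 12, while NLRP3, IL10 and OAS3 stood below their ATRA libraries.

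NF-kB subunits and feedback inhibitors rose in 18 of 20 cases, with a median of 1.12. The inhibitor NFKBIA was at 39.3, 37.4 and 35.4 CPM with ATRA and 127, 123 and 126 CPM with CDK4/6i+ATRA (log2 fold change 1.75 ± 0.06, adjusted p = 1.1e-31). TNFAIP6, a secreted hyaluronan-binding protein, rose most (4.40). RELB (1.76), NFKB2 (1.62) and REL (1.07), which encode subunits, the co-regulator BCL3 (2.67), the apoptosis inhibitor BIRC3 (2.45) and the deubiquitinase TNFAIP3 (1.16) rose. TNFAIP8 (-1.32) and the pathway inhibitor IRAK3 (-0.56) fell. Immediate early genes and ERK feedback genes rose in 24 of 29 cases, with a median of 1.69. SPRY4, an ERK pathway inhibitor, was at 6.78, 5.31 and 5.36 CPM and 112, 113 and 118 CPM (log2 fold change 4.30 ± 0.09, adjusted p = 2.5e-40), beside 5.17, 4.26 and 4.56 CPM in non-treated cells. EGR2 (3.63), PHLDA1 (3.76), FOS (2.68), FOSL2 (2.02), EGR1 (2.32) and the phosphatase DUSP5 (1.70) rose. NR4A3 rose (5.11) while NR4A1 (-0.54) and NR4A2 (-0.92) fell, calls lost without CDK4/6i+ATRA replicate 2 (adjusted p = 0.13 and 0.081), as did the ERK targets ETV4 (-1.53) and ETV5 (-0.24).

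Promoters of an attractant, an NF-kB inhibitor and an interleukin-1 inhibitor that rose are shown next, taken from the same RefSeq table and chosen after their matches were seen. Each is again the first listed start of its gene. Other starts, of IL1RN for example, were not shown, and which start HL60 cells use was not tested. Capitals mark an NF-kB site (GGAATTTCC) and an AP-1 site (TGANTCA), searched on both strands, and in NFKBIA the match reads on the other strand.
CXCL8 promoter, chr4:73740319-73740618 on the plus strand, NF-kB site at -91 and AP-1 site at -137: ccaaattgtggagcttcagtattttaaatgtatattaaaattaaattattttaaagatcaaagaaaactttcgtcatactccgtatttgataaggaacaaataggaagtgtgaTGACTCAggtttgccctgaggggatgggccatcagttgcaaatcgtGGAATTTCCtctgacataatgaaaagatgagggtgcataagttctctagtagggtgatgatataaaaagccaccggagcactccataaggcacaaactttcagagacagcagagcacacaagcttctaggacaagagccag
NFKBIA promoter, chr14:35404700-35404999 on the minus strand, NF-kB site at -81: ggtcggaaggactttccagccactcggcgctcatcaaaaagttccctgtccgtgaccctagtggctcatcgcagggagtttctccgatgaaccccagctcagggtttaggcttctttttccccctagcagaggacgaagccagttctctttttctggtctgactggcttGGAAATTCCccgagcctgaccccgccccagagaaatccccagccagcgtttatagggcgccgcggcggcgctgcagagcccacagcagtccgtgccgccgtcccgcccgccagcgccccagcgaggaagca
IL1RN promoter, chr2:113117721-113118020 on the plus strand, AP-1 site at -223: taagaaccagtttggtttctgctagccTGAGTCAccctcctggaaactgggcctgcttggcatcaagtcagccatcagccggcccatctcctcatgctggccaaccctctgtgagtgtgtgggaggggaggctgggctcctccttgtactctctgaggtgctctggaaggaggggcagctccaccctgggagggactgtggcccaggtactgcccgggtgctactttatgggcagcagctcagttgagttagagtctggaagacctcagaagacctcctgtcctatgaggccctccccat
These NF-kB letters stood in 2 of 8 chemokine promoters found and in 4 of 18 promoters of the NF-kB list (22.2%), against 0.370% of promoters of tested genes and 0.461% of all. The AP-1 letters stood in 3 of the 8 chemokine promoters (37.5%), against 5.22% and 7.71%, and in 1 of 22 promoters of the immediate early list (4.55%). They also stood in 5 of 13 promoters of chemoattractant receptors (38.5%), which went both ways, and in 2 of 7 each of the interleukin-1 and plasminogen lists (28.6%), and the NF-kB letters in 1 of 5 of the integrin and adhesion list. A C/EBP site (TTGCNNAA) was searched in all lists too. Its highest shares were in cytosolic and maturation genes (4 of 7, 57.1%) and specific and gelatinase granule genes (3 of 7, 42.9%), against 7.53% of promoters of tested genes. It stood in 0 of 12 promoters of myeloid transcription factors. No match says only that these letters are not in this window. Here too the list shares count the first listed promoter of each gene and the background shares every listed promoter.

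Interferon and inflammasome genes were mixed. Interferon-stimulated genes had 10 rises and 6 falls among 25 tested, a share of rises of 40.0% beside the background of 36.9%, and a median of 0.17 that stood at -0.13 with library size alone. GBP2, a GTPase, was at 19.8, 18.1 and 14.4 CPM and 79.9, 81 and 85.4 CPM (log2 fold change 2.24 ± 0.08, adjusted p = 3.2e-29), and MX2 rose (1.20). OAS3, an antiviral sensor, was at 7.27, 7.05 and 5.97 CPM and 1.56, 1.25 and 2.07 CPM (log2 fold change -2.04 ± 0.26, adjusted p = 2e-09), and HERC5 (-3.22) and BST2 (-0.74) fell. Among 9 tested inflammasome components 4 rose and 2 fell. The sensor NLRP3 was at 16.7, 18 and 18.6 CPM and 9.62, 8.29 and 8.68 CPM (log2 fold change -1.01 ± 0.11, adjusted p = 1.4e-11), with an alternate contig copy, and the interleukin-1 processing protease CASP1 was at 24.3, 21.3 and 22 CPM and 12.6, 13.4 and 13.1 CPM (log2 fold change -0.79 ± 0.10, adjusted p = 1.1e-09). Both fell while the IL1B transcript rose. The sensors AIM2 (1.78) and NLRC4 (1.43) rose.

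Lipid mediator and protease genes rose as well. Among 11 eicosanoid genes 8 rose and 2 fell. PTGES, the prostaglandin E synthase, was at 543, 491 and 480.5 CPM with ATRA and 1667, 1781 and 1836 CPM with CDK4/6i+ATRA (log2 fold change 1.80 ± 0.04, adjusted p = 1.3e-35). ALOX5AP, needed for leukotriene synthesis (0.91), and LTA4H, which makes leukotriene B4 (1.31), rose, and PLA2G4A, which frees arachidonate, fell (-0.74). Of 10 plasminogen and matrix genes 9 rose, with a median of 2.26. The protease inhibitor TIMP1 was at 142, 121 and 119.6 CPM and 1960, 2079 and 2039 CPM (log2 fold change 3.99 ± 0.05, adjusted p = 7.9e-49). Osteopontin SPP1 (4.16), THBS1 (2.99) and the urokinase receptor PLAUR (2.20) rose, while urokinase PLAU itself fell (-0.51). Other genes overlap 36.4% of the exon bases of PLAU and 25.6% of those of THBS1.

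The 15 largest rises among genes with a mean of at least 5 CPM in either group, LOC and LINC symbols left out, were IL1RN, AQP9, CCL1, BHLHE41, DTX1, RASAL1, NR4A3, GDF15, PNOC, CCL24, S100A12, CES1, TNFAIP8L3, ZNF704 and SLC9A7. Their log2 fold changes ran from 6.09 down to 4.57. CES1 is also listed on an alternate contig. RASAL1, a RAS GTPase-activating protein, was at 3.76, 1.87 and 2.04 CPM and 92.4, 96.4 and 90.7 CPM (log2 fold change 5.20 ± 0.12, adjusted p = 2.1e-38). BHLHE41, a transcriptional repressor of the clock, was at 0.308, 0.525 and 0.166 CPM and 16.7, 15.4 and 15.8 CPM (log2 fold change 5.56 ± 0.26, adjusted p = 1.2e-24), and DTX1, a regulator and target of NOTCH, at 0.493, 0.525 and 0.221 CPM and 18.1, 17.8 and 16.6 CPM (log2 fold change 5.39 ± 0.24, adjusted p = 2.6e-25). All 3 were under 5 CPM in every ATRA library.

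The effect of palbociclib differed with and without ATRA for 6852 genes (51.4%), of which 3258 differences were positive and 3594 negative. Palbociclib alone changed 7482 genes (56.2%) against non-treated cells, and these libraries are not shared with the comparison above. Changed in both were 6100 genes, which is 65.7% of those changed with ATRA and 81.5% of those changed without. The direction was the same for 5203 of them, and in 2576 of these the change was larger with ATRA and the difference passed the test, against 431 where it was smaller. Across the 13318 genes the effects had a Pearson r of 0.63 and a Spearman rho of 0.57, given as a description because genes are not independent. The difference was negative and passed the test for 45 of 48 S phase genes and 49 of 49 G2/M genes, as with PCNA, the replication clamp (26.7% of exon bases shared), which fell by 4.11 on the log2 scale with ATRA and 2.99 without (-1.13, adjusted p = 9.1e-16). Of 73 granulocyte effector genes 18 had a positive and 22 a negative difference that passed the test, and of 138 inflammation genes 64 and 29. Over all 13318 tested genes these were 3258 and 3594. The effector counts are near that background and are not read as a result about these genes, while the positive inflammation share is above it. ITGAX was at 2.39 with ATRA and 2.40 without, and CYBB rose less with ATRA (0.54) than without (1.77, difference -1.23, adjusted p = 3.5e-23).

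**Figure D4:**
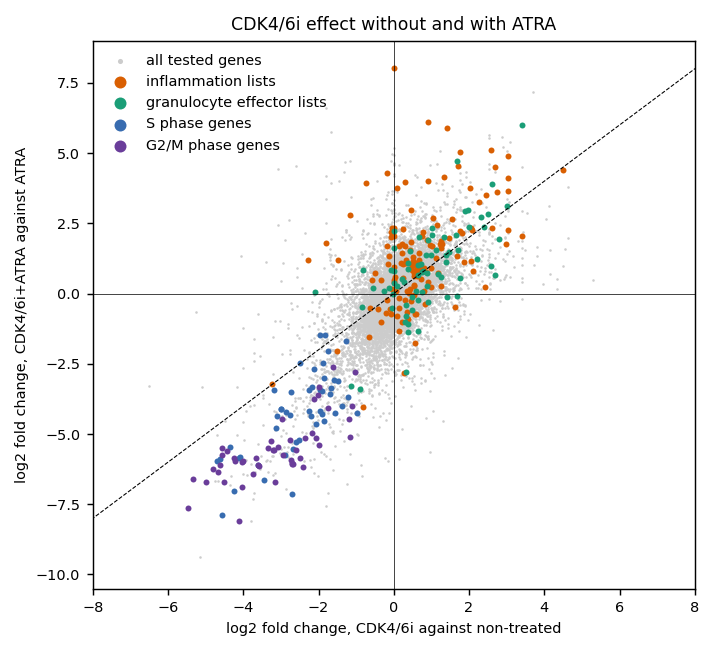
Log2 fold change of CDK4/6i+ATRA against ATRA (y axis) and of CDK4/6i against non-treated cells (x axis) for 13318 tested genes (grey), with the inflammation, granulocyte effector, S phase and G2/M phase lists in colour. The dashed line marks equal effects, and most cell cycle genes lie below it while many inflammation genes lie above it.

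A smaller set of 897 genes changed in opposite directions, 452 higher with ATRA and lower without, and 445 the reverse. The members described here were picked for that difference, so their values are a description. TMEM158, a RAS-induced membrane protein, was at 4.63, 3.89 and 3.49 CPM in non-treated cells and 1.4, 1.65 and 1.35 CPM with palbociclib alone, but at 32.6, 25.7 and 22.3 CPM with ATRA and 420.0, 445 and 434 CPM with both drugs. PIM1, a survival kinase, was at 4.99, 4.89 and 5.24 CPM and 0.778, 0.611 and 0.527 CPM without ATRA, and at 51.8, 47.1 and 50.1 CPM and 106, 105 and 106 CPM with it. JUN, the AP-1 subunit, was at 13.3, 9.53 and 11.8 CPM and 5.45, 5.26 and 4.74 CPM, and at 38.6, 31.5 and 27.2 CPM and 238, 220.4 and 218 CPM. In each case palbociclib lowered the gene without ATRA and raised it with ATRA. TNFAIP8L3, OSBPL6, RGCC, KCNH4, SDC4, PLCB1 and BATF3 had the same pattern, with log2 fold changes of 1.13 to 4.68 with ATRA and of -4.06 to -1.13 without.

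Genes with the reverse pattern rose with palbociclib alone and fell when it was added to ATRA. RNASE2, the eosinophil-derived neurotoxin, was at 100.4, 91.2 and 90.0 CPM in non-treated cells and 138, 136 and 136 CPM with palbociclib alone, and at 11, 13.6 and 11.4 CPM with ATRA and 1.28, 1.16 and 1.4 CPM with both drugs. GPR183, an oxysterol receptor that guides cell migration, was at 90.3, 83 and 87 CPM and 141, 145 and 143 CPM, and at 9.24, 7.64 and 8.4 CPM and 1.28, 1.07 and 0.826 CPM. CEACAM6, a granulocyte adhesion molecule, was at 15.1, 19 and 15.3 CPM and 27.3, 30.5 and 23.2 CPM, and at 4.75, 5.42 and 7.24 CPM and 0.642, 0.535 and 0.744 CPM. For these 3 genes ATRA alone had already lowered the level, and adding palbociclib lowered it again. CD24, OLIG1, B3GNT7, SELPLG, STEAP3, P2RY10 and MZB1 made up the rest of the 10, with differences of -3.98 to -2.97. B3GNT7 had 10 and 1 counts and MZB1 38 and 4 counts in the ATRA and CDK4/6i+ATRA libraries, so the size of their change with ATRA is uncertain, and the call of B3GNT7 was lost without CDK4/6i+ATRA replicate 3 (adjusted p = 0.15), with no filter (0.067) and with DESeq2 (0.057).

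**Figure D5:**
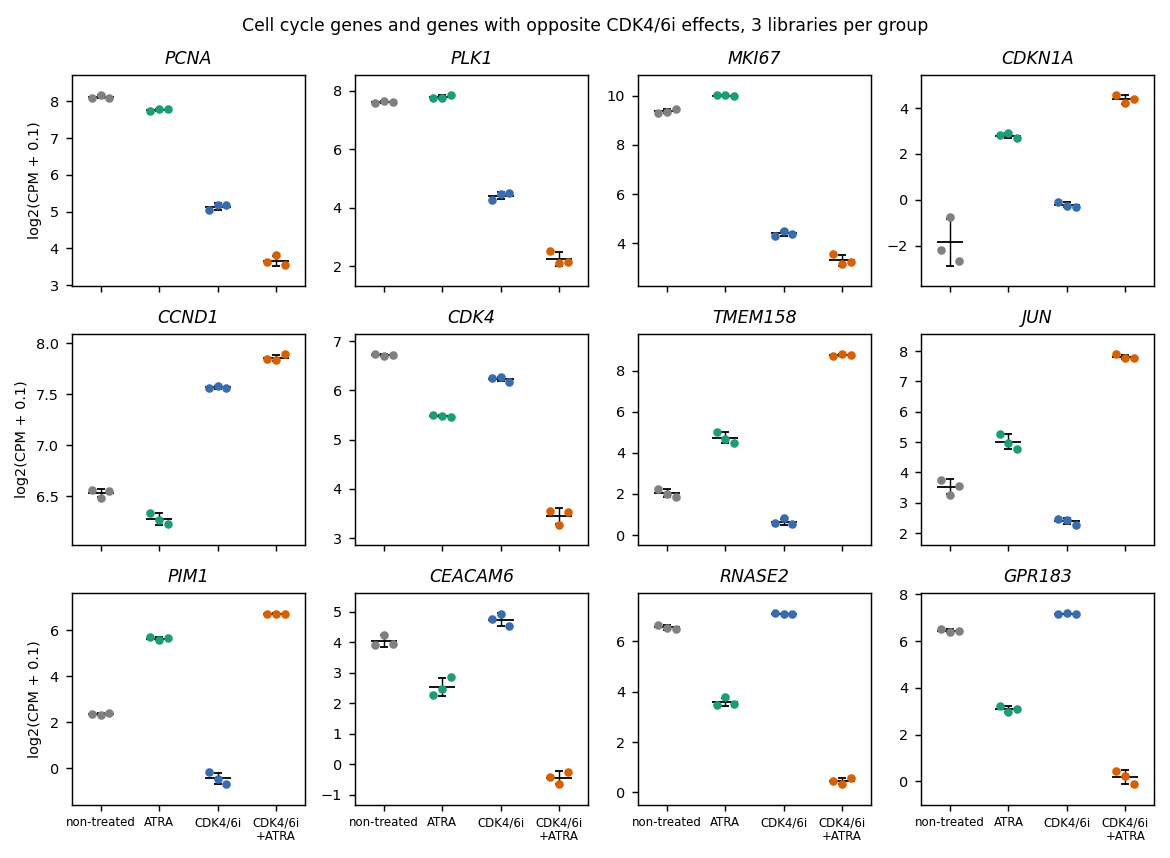
Expression of 6 cell cycle genes and 6 genes with opposite palbociclib effects as log2(CPM + 0.1) (y axis) in the 4 groups (x axis). Points are the 3 libraries of a group, and horizontal and vertical bars are the mean and SD. PCNA, PLK1 and MKI67 were lowest with CDK4/6i+ATRA, TMEM158, JUN and PIM1 were highest there and lowest with CDK4/6i alone, and CEACAM6, RNASE2 and GPR183 were highest with CDK4/6i alone.

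The study is about PML nuclear bodies, and genes of these bodies, of H3.3 chaperones and of the nucleolus are given last. RNA polymerase I and nucleolar factors, which make ribosomes, fell in 40 of 48 tested cases (median -0.60), against 32.8% of all genes, and rose in 3. Nucleolin NCL was at 993, 1012 and 1069 CPM and 433, 407 and 415 CPM (log2 fold change -1.29 ± 0.04, adjusted p = 1.9e-30), the box C/D protein NOP56 at 118, 129 and 126 CPM and 47.1, 47.5 and 43.5 CPM (log2 fold change -1.44 ± 0.05, adjusted p = 1.3e-28), and the polymerase subunit POLR1B at 62.8, 66.3 and 65.6 CPM and 38.8, 38.5 and 37.5 CPM (log2 fold change -0.76 ± 0.05, adjusted p = 4.8e-18). POLR1G fell most (-1.56), and other genes overlap 56.3% of its exon bases. RRP12 (0.89), NOP10 (0.81, also listed on an alternate contig) and POLR1D (0.31, and 0.0029 with library size alone, adjusted p = 0.94) rose. The fall of POLR1B was 0.12 with palbociclib alone, and the difference of -0.64 passed the test (adjusted p = 8.7e-12).

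PML itself fell slightly, at 87.9, 89.4 and 96.4 CPM with ATRA and 80.4, 85.8 and 81.3 CPM with CDK4/6i+ATRA (log2 fold change -0.15 ± 0.05, adjusted p = 0.0071), a call lost without ATRA replicate 3 (adjusted p = 0.069). Of the 18 genes of PML bodies, SUMO and histone H3.3 chaperones 4 rose and 11 fell, with a median of -0.17. The H3.3 chaperone HIRA was at 101, 90.7 and 102 CPM and 54, 55.1 and 60.7 CPM (log2 fold change -0.79 ± 0.05, adjusted p = 1.8e-18). ATRX was at 107, 108 and 102 CPM and 144, 132 and 135 CPM (log2 fold change 0.37 ± 0.04, adjusted p = 2.1e-10), which stood at 0.07 with library size alone and then did not pass (adjusted p = 0.21), and its partner DAXX, which is also listed on an alternate contig, at 2.47, 1.81 and 1.99 CPM and 2.29, 0.713 and 0.826 CPM (-0.72) without passing the test (adjusted p = 0.055). The DAXX value passed as lower with DESeq2's size factors (adjusted p = 0.049), library size alone (0.0088), no filter (0.024) and only the groups compared (0.047), and without ATRA replicate 2 (0.048) or CDK4/6i+ATRA replicate 1 (-1.42, adjusted p = 0.0014). The body component SP100 rose (0.73). ASF1B, a replication-linked chaperone that is also listed on an alternate contig, fell from 131, 137 and 135 CPM to 2.47, 2.32 and 2.97 CPM (-5.69), beside -0.40 for its paralogue ASF1A. The H3.3 genes H3-3A (0.20) and H3-3B (0.13) rose with TMM and passed as falls with library size alone (-0.10 and -0.18, adjusted p at most 0.012), and H3-3B did not pass with no filter (0.03, adjusted p = 0.62) or with only the groups compared (0.06, adjusted p = 0.18).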

How the data were processed

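RNA-Seq was run on HL60 cells in 4 groups of 3 libraries, with a directional kit. The authors trimmed reads with Trimmomatic (0.33) and aligned them to hg38 with STAR (2.7.11a). The study's methods name RSEM for counting, while the layout of the deposited table is that of featureCounts. The deposited values are whole-number counts per gene on RefSeq genes, not normalized. Whether the counting used strand is not given in the sources used here. The counts were used as deposited.

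Genes were filtered with filterByExpr, scaled by TMM and tested with the quasi-likelihood test of edgeR (4.0.16, limma 3.58.1, R 4.3.3) in 1 model of the 4 groups over all 12 libraries, and p-values were adjusted by the Benjamini-Hochberg method over 13318 genes. The difference between the palbociclib effects with and without ATRA was an interaction contrast. DESeq2 (1.42.0) was run as an alternative. Total counts of the 6 libraries compared ran from 12230923 to 17010052, which limits genes of a few counts, and counting intervals and floors (3 counts per library) cover counting error only. Both tools were tested on simulated data.

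Genes were named as members of the lists or because the study names them. Others were the 15 largest rises and 15 largest falls among genes whose libraries did not overlap, or the 10 highest and 10 lowest differences among genes with opposite effects. Rises and falls needed a mean of at least 5 CPM in either group compared, and opposite effects in any of the 4 groups. Symbols beginning with LOC or LINC were left out of these rankings. The members and lists were chosen with earlier results of these data known. Alternatives were another normalization, filter, tool and set of samples, a replicate block, and leaving out each library. Some genes are not reported here.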

Additional observations from a re-analysis of the deposited data

Results flagged for a closer look

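The effect of palbociclib differed between cells with and without ATRA for 6852 genes by the interaction contrast of edgeR's quasi-likelihood fit, and those of the largest rises and falls, the opposite effects and the genes the study names are given here as the log2 effect with ATRA minus that without. Among the largest rises the difference was positive for IL1RN (5.18), CCL1 (4.50), BHLHE41 (2.68), RASAL1 (2.29), PNOC (5.02), CES1 (5.88), TNFAIP8L3 (5.97), ZNF704 (3.64) and SLC9A7 (4.44). For AQP9, DTX1, NR4A3, GDF15, CCL24 and S100A12 the difference did not pass the test. Among the largest falls it was negative for PBK (-3.96), E2F8 (-3.32), CDCA3 (-2.18), RAD54B (-5.74), HJURP (-3.57), POLE2 (-4.44), NEIL3 (-5.34), EXO1 (-2.78), DSCC1 (-4.08), SPC25 (-2.85), CLSPN (-2.45), ANLN (-3.57), MKI67 (-1.73) and NDC80 (-2.20). It did not pass for E2F7. At the floor with CDK4/6i+ATRA were PBK and RAD54B (1 count each), SPC25 (2), POLE2 (3), DSCC1 (4) and E2F8 (5). CCL1 was at the floor with ATRA (6 counts). The sizes of these differences are therefore uncertain, as are those of B3GNT7 and MZB1 below.

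The genes with opposite effects were chosen by this difference, so their values describe the choice. They were TMEM158 (5.46), OSBPL6 (5.38), RGCC (4.57), KCNH4 (4.54), SDC4 (4.50), PIM1 (4.04), JUN (3.97), PLCB1 (3.52) and BATF3 (3.38) on the positive side, beside TNFAIP8L3 above, and CD24 (-3.98), CEACAM6 (-3.88), RNASE2 (-3.76), GPR183 (-3.71), OLIG1 (-3.45), B3GNT7 (-3.44), SELPLG (-3.11), STEAP3 (-3.08), P2RY10 (-3.01) and MZB1 (-2.97) on the negative side.

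Among the genes that the study names, the difference was positive for CXCL8 (1.08), IL1A (1.82) and IL1B (2.84) and negative for ITGAM (-0.28), PML (-0.29), HIRA (-0.46), POLR1B (-0.64) and POLR1G (-0.82). It did not pass the test for CD38, ATRX, DAXX, CDKN1A and MMP9. CES1 and SPC25 are also listed on alternate contigs.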

How the results depend on the processing

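The 9291 genes called and the 48 S phase and 49 G2/M falls stayed within 1.5 times their counts under every alternative that was run, with totals of 9259 with DESeq2's size factors, 9368 with library size alone, 9196 with no filter, 7926 with at least 10 counts in every library, 9014 with only the groups compared and 8929 with DESeq2. Library size alone lowered the rises to 2956 and the rises of at least 2-fold to 927, and it moved the median of all genes from 0.04 to -0.26. It turned the sign of 9 named genes, to -0.28 for CD38, -0.26 for MNDA, -0.21 for NCF4, -0.18 for H3-3B, -0.16 for DHRS9 and CLC, -0.10 for H3-3A, -0.050 for CSF3R and -0.021 for ITGAL, of which all but CSF3R and ITGAL passed as falls. Asking for at least 10 counts in every library, which tests fewer genes (10296), left 815 rises and 1121 falls of at least 2-fold and 31 effector genes that rose.

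Leaving out 1 library at a time gave 8909 to 9425 called genes, 4695 to 5008 rises, 4214 to 4437 falls, 1471 to 1565 rises and 1760 to 1814 falls of at least 2-fold, and 6503 to 6693 differences. Effector rises were 46 to 47 and falls 12 to 15, inflammation rises 97 to 101 and falls 20 to 24, and nucleolar falls 38 to 40. Small or low-count calls that were lost without 1 library were those of TLR4, BPI, TGM2, PML, ASB2, DHRS9, CLC, CXCR1, CCL22, NR4A1, NR4A2, CLEC4C and B3GNT7, with adjusted p of 0.050 to 0.29 without that library, and the cause was not tested.

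With the replicate number as a block 9213 genes were called, and 6775 differences. Same-numbered libraries did not deviate together (18 pairs, r of -0.07 to 0.03, none above 0.1), so no pairing by number was seen. This check cannot show that the samples were unpaired. TGM2 was the 1 named gene that lost its call under the block (adjusted p = 0.051). Depth limits genes of a few counts, such as CCL7, CCL1, IL10 and CCR2.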
